A study of Mus musculus with 6 samples.

Results

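Polr1b and Fscn1 are 2 mouse genes in which many polyadenylated RNAs ended early, far before the usual 3′ end, when U1 was inhibited. Polr1b encodes the second-largest subunit of RNA polymerase I, the enzyme that transcribes ribosomal RNA. Fscn1 encodes fascin, which bundles actin filaments in filopodia. Both genes were chosen because a cleavage site near their 5′ end was among the strongest differences between the U1 AMO and scrambled AMO libraries. Levels in the U1 AMO libraries therefore describe that choice, and edgeR calls that involve them are printed to show what it rests on, not as evidence. Taken were all plus-strand positions (mm9 build) in a window of 29 kb on chromosome 2 that begins 3.81 kb before the near-promoter cut of Polr1b, and in one of 15.5 kb on chromosome 5 that begins 1.73 kb before that of Fscn1. Where neighbouring positions were no more than 24 nt apart they were counted as 1 cluster. This gave 27 clusters for Polr1b and 5 for Fscn1, 32 of the 931826 clusters of the series.

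The data are 3′ end sequencing of polyadenylated RNA from V6.5, a mouse embryonic stem cell line of the strain C57BL/6-129, which is able to form all tissues of the body. There were 3 groups of 2 libraries, which the series describes as biological replicates. Cells had no treatment, a scrambled antisense morpholino oligonucleotide (scrambled AMO) or a U1-targeting AMO (U1 AMO). A morpholino is a synthetic oligonucleotide that pairs with an RNA and blocks it. The labels refer to published conditions for U1 inhibition and give no dose or duration. The libraries held between 15752080 (U1 AMO replicate 1) and 62257923 reads (scrambled AMO replicate 2). Levels are given as CPM, the reads of a cluster scaled to the total of its library. Fewer RNA molecules per cell and fewer cells with the RNA cannot be told apart in such bulk samples.

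As background, most mRNAs are cut and polyadenylated a short distance after a poly(A) signal, a hexamer of which AATAAA is the most common form. Introns hold many such hexamers. U1, an RNA and protein particle that binds 5′ splice sites, is known to suppress cleavage at them. Blocking U1 is known to let RNA end early, often in the first intron of a gene. The deposited rows give the hexamer that belongs to each position and its distance to the cut. For the sites that carry the result, the hexamers at the strongest position were as follows, with the site named before each.
Polr1b near-promoter site: ATTAAA
Polr1b full 3′ end: AATAAA
Fscn1 near-promoter site: AATAAA
Fscn1 full 3′ end: AATAAA

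The near-promoter site of Polr1b lay at chr2:128929801-128929811 and its full 3′ end at chr2:128952328-128952336, with 22.5 kb between the strongest positions. For Fscn1 they lay at chr5:143723224-143723247 and chr5:143734847-143734871, 11.6 kb apart. The full 3′ end was taken as the cluster with the highest untreated level in the window. Near-promoter means the first 5000 nt of the window. The distance to the annotated start was not measured, because no mm9 annotation was used here. Hexamer and cut were 19 nt apart at the strongest position of both near-promoter sites and 21 nt apart at both full 3′ ends. Over the 80049 clusters that passed a filter on low counts the median spacing was 21 nt, with quartiles of 19 and 25. ATTAAA, the hexamer of the Polr1b site, was at 16.6% of those clusters and AATAAA at 49.3%. By hexamer and spacing the near-promoter sites were therefore within the common range of sites in these libraries.

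The sequence before the annotated start of each gene is shown as its promoter. Near-promoter sites are named by their place in the window, not by their distance to this start. Whether a hexamer in these promoters bears on the cleavage sites was not tested. RefSeq's table (GRCm38.p6, another build than the cleavage positions) gives 250 bases at chr2:129100746-129100995 for Polr1b and at chr5:142960105-142960354 for Fscn1, both on the plus strand, and both genes matched by symbol. Capitals mark any match to AATAAA, to its variant ATTAAA or to the hexamer TATAAA, searched on both strands.
Polr1b: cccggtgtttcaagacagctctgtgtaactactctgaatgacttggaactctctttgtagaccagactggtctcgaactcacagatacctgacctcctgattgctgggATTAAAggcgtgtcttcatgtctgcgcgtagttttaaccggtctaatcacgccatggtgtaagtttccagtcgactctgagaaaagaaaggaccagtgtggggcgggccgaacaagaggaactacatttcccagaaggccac
Fscn1: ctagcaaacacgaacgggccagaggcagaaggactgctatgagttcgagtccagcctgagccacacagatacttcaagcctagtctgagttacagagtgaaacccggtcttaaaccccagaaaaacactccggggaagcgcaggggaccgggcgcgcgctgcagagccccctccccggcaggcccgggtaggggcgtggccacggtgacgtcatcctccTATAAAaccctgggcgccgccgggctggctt
Polr1b held 1 match to ATTAAA, starting 142 bases before the start, and Fscn1 held 1 match to TATAAA, starting 31 bases before it, both on the strand of the gene. On that strand ATTAAA was found in 6.91% and TATAAA in 7.59% of 32851 such promoters, and AATAAA, absent from both, in 10.4%. TATAAA is also the core of the TATA box, a promoter element that sets the start of transcription. The G and C content was 49.6% for Polr1b and 62.4% for Fscn1, around a median of 52.4% over these promoters. In the Polr1b window and the 5 kb before it, no minus-strand cluster held more than 8 reads over the 6 libraries.

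The first comparison asked where RNA of these genes was cleaved under inhibition of U1, using the scrambled AMO libraries as controls. Of the 9 clusters of both genes that passed the filter on low counts, 7 in Polr1b and 2 in Fscn1, the near-promoter site of each gene was called higher in edgeR, where 0.666% of all tested clusters were called. The same sites were called against untreated cells, where 4.39% of clusters were called higher. In a fit of the 4 AMO libraries with run as a term, where 13.4% of clusters were called higher, the same 2 sites were again the only ones of the 9 called. In edgeR neither site was called in this contrast without scrambled AMO replicate 2 (adjusted p = 0.110 for both) or with a replicate block over all 6 libraries (adjusted p = 0.113 for both). With the same block neither was called against untreated cells (adjusted p = 0.0506 for both, edgeR). No untreated library shared a sequencing run with an AMO library, so this block pairs the untreated libraries by number alone. These contrasts chose the genes, so nothing is read from the calls. None of the other 7 clusters was called in either contrast.

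At the near-promoter site of Polr1b the U1 AMO libraries had 843 and 3688 reads (replicates 1 and 2), the scrambled libraries 2 and 4, and neither untreated library had any. This made 53.5 and 63.7 CPM in the U1 AMO libraries, against 0.0745 and 0.0642 CPM in the scrambled ones. Both U1 AMO libraries stood far above all 4 controls. Read names in the files show that both AMO libraries with the same replicate number came from the same sequencing run, whereas each untreated library had its own. The U1 AMO level divided by the scrambled level of its run was 718 (95% counting interval 198 to 5941) and 991 (387 to 3639). Against untreated cells the level was 2030-fold higher when the 0 untreated reads were taken as 3, the limit a count of 0 allows. The lower 95% counting limit of the ratio to untreated cells was 1650. The intervals cover counting error only, since no molecular identifiers are described and reads copied by PCR are not independent.

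The near-promoter site of Fscn1 had 1265 and 2326 reads in the U1 AMO libraries, 4 and 2 in the scrambled libraries, and 3 and 0 in the untreated ones. The U1 AMO libraries thus reached 80.3 and 40.2 CPM. The scrambled libraries had 0.149 and 0.0321 CPM, and the untreated libraries had 0.0778 and 0. Again the U1 AMO libraries stood apart from all controls, but replicate 1 was higher than replicate 2, the reverse of the order in Polr1b. The ratio within a run was 539 (210 to 1981) in replicate 1 and 1250.0 (346 to 10328) in replicate 2. The wide intervals come from the 4 and 2 control reads. Against untreated cells the pooled ratio was 1609 (550 to 7806).

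Levels at the full 3′ end of both genes overlapped between the groups. For Polr1b the untreated libraries had 36.8 and 24.8 CPM, the scrambled libraries 37.8 and 51.5, and the U1 AMO libraries 36.3 and 43.4. Both U1 AMO libraries lay inside the range of the controls. For Fscn1 the untreated libraries had 303.7 and 532.6 CPM, the scrambled libraries 484.5 and 466.6, and the U1 AMO libraries 488.6 and 426.5, again inside the range of the controls. The widest gap between replicates was that of the untreated Fscn1 libraries. Divided by the scrambled level of its run, the U1 AMO level was 0.961 (0.866 to 1.07) and 0.843 (0.800 to 0.889) for Polr1b, and 1.01 (0.980 to 1.04) and 0.914 (0.899 to 0.930) for Fscn1. In log2 the ratio of means was -0.16 for Polr1b and -0.06 for Fscn1. It became 0.0782 for Polr1b without scrambled AMO replicate 2 and 0.0392 for Fscn1 without U1 AMO replicate 2. Neither direction thus held when 1 library was left out, but leaving out 1 AMO library also breaks the pairing by run. Within the runs both Polr1b ratios were below 1, that of replicate 1 with an interval that includes 1. The Fscn1 ratios lay on both sides of 1. The mean of the log2 ratios within a run was -0.15 for Polr1b and -0.06 for Fscn1.

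**Figure D1:**
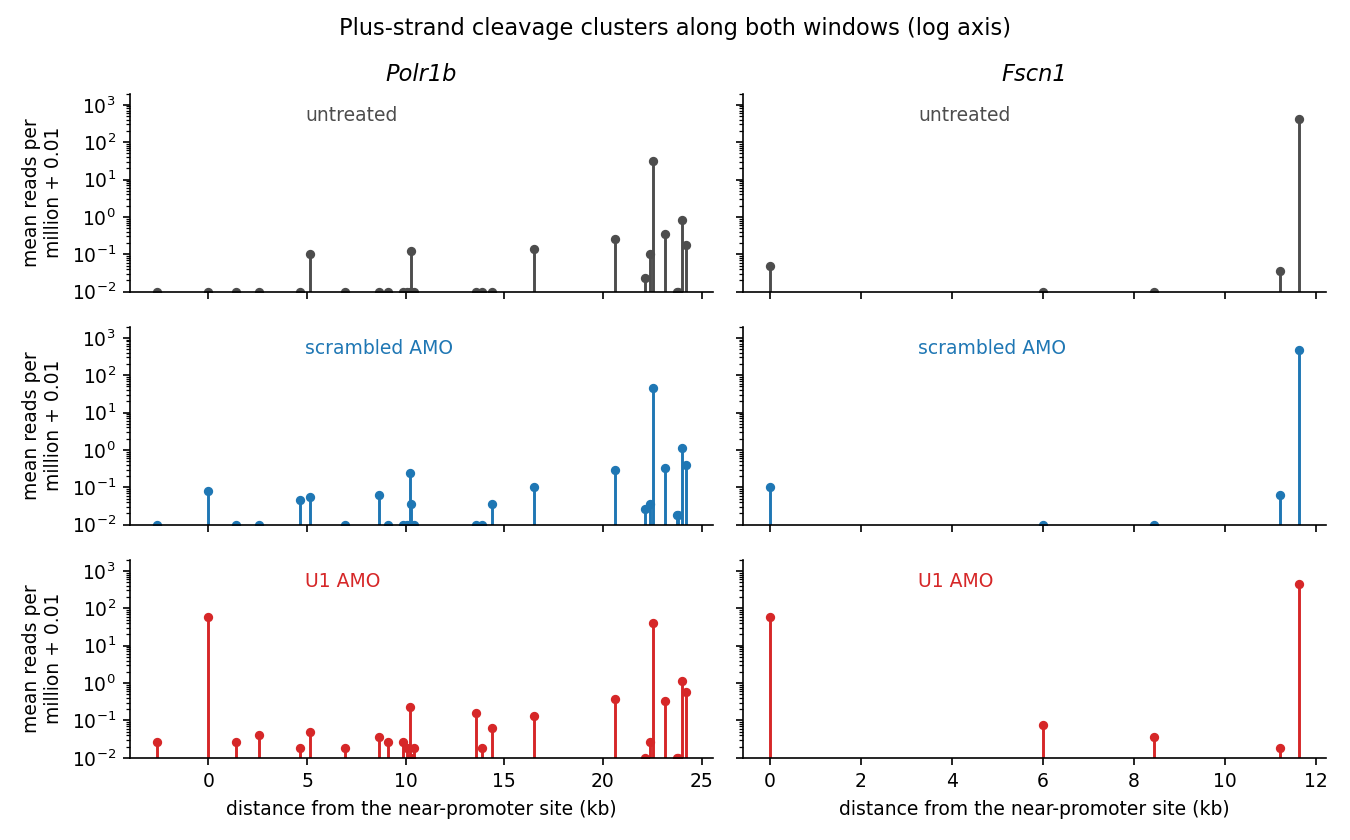
Mean CPM plus 0.01 on a log axis (2 libraries a group) of every plus-strand cluster, against its distance in kb from the near-promoter site at 0; stems at the floor have no reads in that group. A tall stem at 0 kb is present with the U1 AMO in both genes, while the full 3′ ends at 22.5 and 11.6 kb stand at similar heights in the 3 groups.

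Similar mean levels near the promoter, 58.6 and 60.2 CPM, came to a different share of each gene. Of the reads at the near-promoter site and the full 3′ end of Polr1b together, the near-promoter site took 59.6% (95% Wilson interval 57.0% to 62.1%) and 59.4% (58.2% to 60.7%) in the U1 AMO libraries. It took 0.197% and 0.125% in the scrambled libraries. In untreated cells none of 1420 and 1502 reads was there, which allows shares of up to 0.211% and 0.200%. More Polr1b reads thus ended at the near-promoter site than at the full 3′ end in both U1 AMO libraries, by 1.47-fold in each. For Fscn1 the near-promoter share was 14.1% (13.4% to 14.9%) and 8.61% (8.28% to 8.95%) in the U1 AMO libraries, 0.0307% and 0.00688% in the scrambled libraries, and 0.0256% and 0 in the untreated ones. The 0 among 32209 reads allows up to 0.00931%. Polr1b agreed between replicates to within counting error, and Fscn1 did not. The difference between the genes was not tested, since both were picked on this contrast; the shares differed by more than the spread between replicates of either gene.

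**Figure D2:**
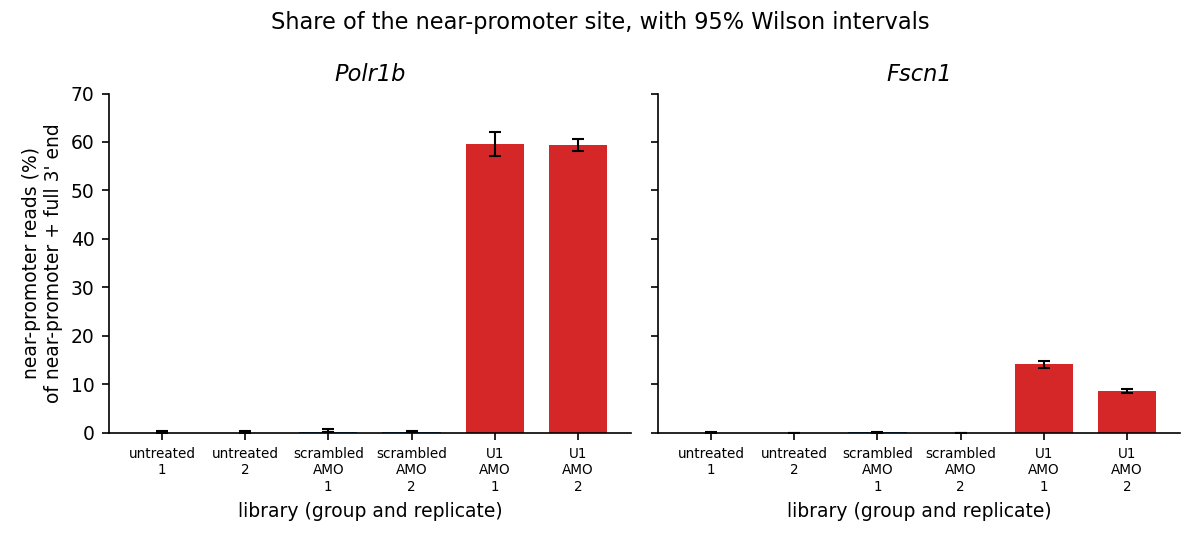
Bars give, for each library, the percentage of reads at the near-promoter site among those at that site and the full 3′ end, with 95% Wilson intervals for counting error. The U1 AMO libraries stand at 59.6% and 59.4% for Polr1b and at 14.1% and 8.61% for Fscn1, and all 8 control bars lie below 0.2%.

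The gain near the promoter was not matched by an equal loss at the full 3′ end in the Polr1b libraries. Within the runs the near-promoter zone of Polr1b was higher by 53.4 and 63.6 CPM with the U1 AMO, and the difference at the full 3′ end was -1.46 and -8.08 CPM. The plus-strand reads of the whole Polr1b window came to 92.4 CPM against 39.6 in replicate 1 and to 111 against 55.2 in replicate 2. For Fscn1 the near-promoter zone was higher by 80.2 and 40.1 CPM, and the full 3′ end differed by 4.10 and -40.1 CPM. The Fscn1 window as a whole came to 569 CPM against 485 in replicate 1, and to 466.7 against 466.6 in replicate 2, where gain and loss were nearly equal in CPM. CPM values are shares of a library, so the number of molecules gained or lost was not measured.

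Sites between the near-promoter zone and the full 3′ end were at low levels in all groups. The 19 internal clusters of Polr1b summed to 0.570 and 0.794 CPM in the untreated libraries, 0.745 and 0.932 in the scrambled libraries, and 1.02 and 1.23 in the U1 AMO libraries. The U1 AMO libraries were the highest, at 1.36 and 1.32 times the scrambled AMO library of the same run. These ratios rest on few reads, and no counting interval was computed for them. The internal zone held 16 and 71 reads with the U1 AMO and 20 and 58 with the scrambled AMO. In the near-promoter zone the U1 AMO libraries held 843 and 3690 reads. Of these 19 clusters 13 had 10 or fewer reads over the 6 libraries. The 3 internal clusters of Fscn1 held 2 and 4 reads in the U1 AMO libraries, 2 and 2 in the scrambled libraries and 2 and 0 in the untreated ones. In both genes the early cleavage was thus concentrated at 1 site in the first 5 kb of the window, and no internal cluster reached 1 CPM in any group. Some internal clusters had reads only in U1 AMO libraries. The largest of them, at chr2:128943389-128943390 in Polr1b, had 3 and 6 reads (0.190 and 0.104 CPM).

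After the full 3′ end, Polr1b had 5 further plus-strand clusters and Fscn1 had none. They summed to 1.43 and 1.19 CPM in the untreated libraries, 0.968 and 2.68 in the scrambled libraries, and 1.52 and 2.52 in the U1 AMO libraries, so that the groups overlapped. The largest, at chr2:128953779-128953809 with the hexamer AAGAAA, lay between the full 3′ end and the end of the window. Its untreated levels were 0.804 and 0.794 CPM, its scrambled levels 0.708 and 1.51, and its U1 AMO levels 0.952 and 1.29. The next protein-coding genes in RefSeq's order (GRCm38.p6) are Chchd5 after Polr1b and Rnf216 after Fscn1, and whether the clusters belong to Polr1b was not tested.

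**Figure D3:**
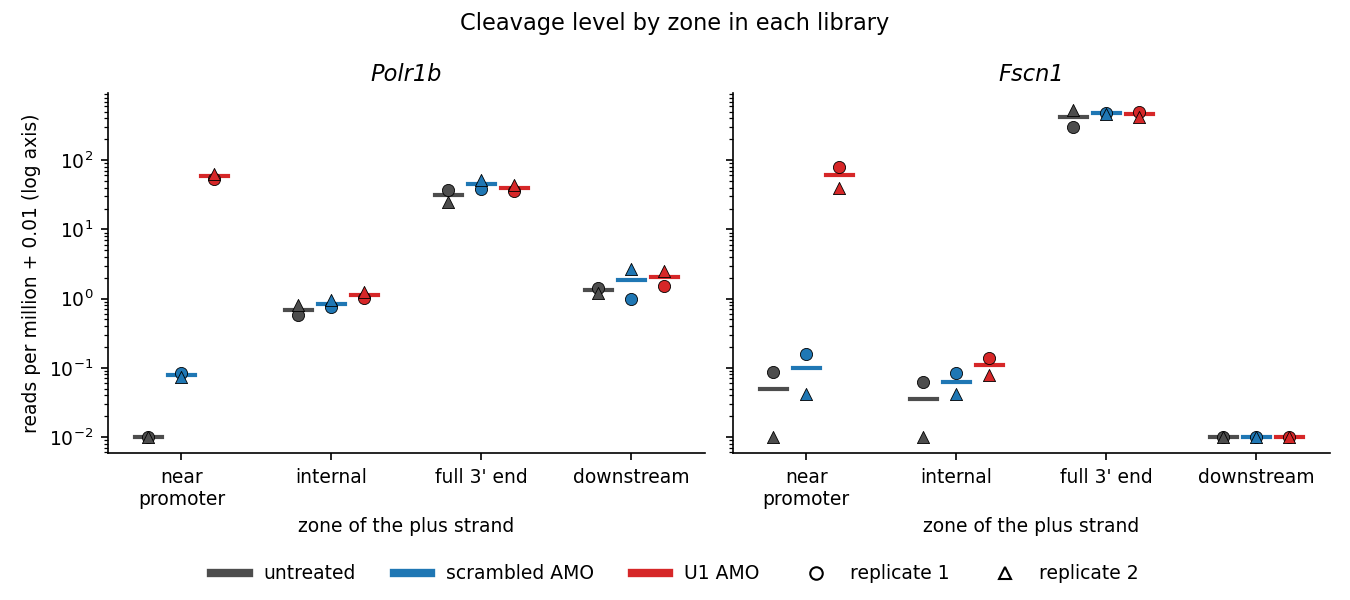
CPM plus 0.01 on a log axis in each library (circles for replicate 1, triangles for replicate 2, bars for means of 2) by zone of the plus strand. In both genes the groups part in the near-promoter zone, where the U1 AMO libraries lie between 40.2 and 80.3 CPM and no control library exceeds 0.149, and overlap at the full 3′ end.

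Within the clusters, the base at which RNA was cut repeated between libraries. At the Polr1b near-promoter site 446 of 843 reads (52.9%) and 2261 of 3688 reads (61.3%) with the U1 AMO ended at chr2:128929805, and a further 36.9% and 30.2% ended at the next base. All 6 scrambled AMO reads fell on these 2 positions or the one after. Fscn1 was cut over a wider stretch. Its near-promoter site had a peak at chr5:143723231 with 18.8% and 18.7% of reads and another 4 nt on, at chr5:143723235, with 17.1% and 16.5%. The low point between them, at chr5:143723233, held 3.72% and 4.13%. Positions before it held 36.5% and 36.7% of reads and positions after it 59.8% and 59.2%, so the 2-peaked shape was nearly the same in both libraries although their levels differed 2-fold in CPM. The same AATAAA was listed for both peaks, at 19 and 23 nt. All 3 untreated reads were at the position of the second peak.

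The full 3′ ends were each cut mostly at 2 adjacent bases in every library. Polr1b was cut at chr2:128952330 in 45.8% to 55.6% of its reads over the 6 libraries, and at the next base in 30.8% to 35.0%. Fscn1 was cut at chr5:143734862 in 43.9% to 57.7% of reads and at the base before it in 27.8% to 34.9%. The strongest position was the same in all 6 libraries for both genes. Among 6905 tested clusters with at least 20 CPM with the U1 AMO, the strongest position took a median of 47.4% of reads, with quartiles of 35.9% and 61.3%. With libraries pooled, the strongest positions of both Polr1b sites and of the Fscn1 full 3′ end took shares between these quartiles, and that of the Fscn1 near-promoter site took a share below them. The 6905 clusters had a median width of 31 nt, with quartiles of 24 and 43. The near-promoter clusters spanned 11 nt in Polr1b and 24 nt in Fscn1.

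**Figure D4:**
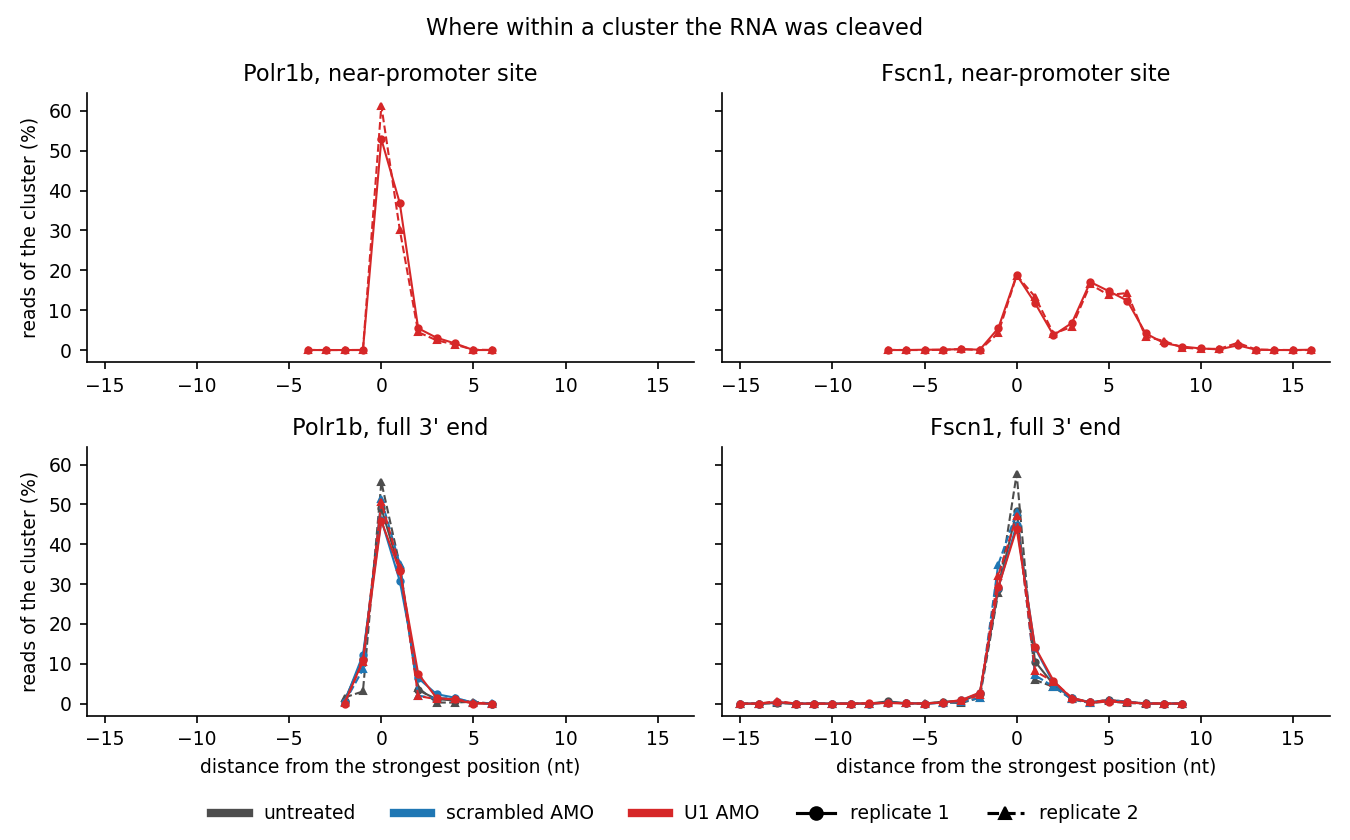
Percentage of a cluster's reads at each base, against the distance in nt from its strongest position, for the near-promoter sites (U1 AMO libraries only, since the controls had at most 4 reads) and for the full 3′ ends (all 6 libraries). Polr1b has 1 sharp peak at both sites, and the Fscn1 near-promoter site has peaks at 0 and 4 nt that overlay in both replicates.

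A second comparison, scrambled AMO against untreated cells, asked whether levels differed with a morpholino that does not target U1, and it did not choose the genes. Over the genome edgeR called 0% of the 80049 clusters, 10490 of which had an unadjusted p under 0.05, and DESeq2 called 1367 higher and 814 lower. Of the clusters of these genes, this comparison tests the full 3′ ends, which were well covered in all 6 libraries. At the full 3′ end of Polr1b the log2 fold change was 0.50 ± 0.38 (SE) with an adjusted p of 0.623 in edgeR, and at that of Fscn1 it was 0.17 ± 0.33 with an adjusted p of 0.886. The Polr1b value was 0.17 to 0.95 when each library of the 2 groups was left out in turn. That of Fscn1 was -0.0752 to 0.57, and its direction reversed without untreated replicate 1. The groups were sequenced in different runs, so run and treatment cannot be told apart.

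The near-promoter sites passed the filter on low counts only through their U1 AMO reads, so they are described here with no test. The 6 scrambled AMO reads at the Polr1b site came to 2.22 times the level that 3 reads in the untreated group would give. From the observed counts, the lower counting limit of the ratio of scrambled AMO to untreated cells was 1.31. That limit covers counting error only. At the internal Polr1b cluster chr2:128940024-128940042, with the hexamer ATTAAA, the scrambled libraries had 3 and 22 reads, the U1 AMO libraries 3 and 15, and the untreated libraries none. It passed the filter only through AMO libraries, so it is not tested either. Its levels overlapped between the AMO groups, at 0.112 and 0.353 CPM (scrambled) against 0.190 and 0.259 CPM (U1 AMO). It lies below the level set for naming a cluster and was singled out after its values were seen.

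By the distance between log2(CPM + 0.1) values over the 6 libraries, the clusters most like the Polr1b near-promoter site were at chr4:153353347-153353374 (plus strand, distance 0.77), chr10:88288888-88288904 (minus, 0.96) and chr15:36717000-36717042 (minus, 1.06). Those most like the Fscn1 site were the same chr15 and chr4 clusters (1.12 and 1.15) and chr11:114530876-114530900 (plus, 1.24). The chr4 cluster had 59.8 and 55.7 CPM with the U1 AMO and the chr15 cluster 60.2 and 59.2, nearly equal in the 2 runs. The chr10 cluster had 47.3 and 41.6 CPM in the U1 AMO libraries, 0.0745 and 0 in the scrambled ones and no untreated reads. The chr11 cluster had 79.9 and 38.4 CPM, the same order as Fscn1. The 2 near-promoter sites were 1.35 apart, with 7 clusters closer to that of Polr1b and 6 closer to that of Fscn1. With the U1 AMO, 3.72% of tested clusters had a higher mean level than the Polr1b site and 3.63% a higher one than the Fscn1 site.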

How the data were processed

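For each of the 6 libraries polyadenylated RNA was cut with RNase T1 and copied to cDNA, which was sized on a gel, made circular, amplified by PCR and sequenced from the 3′ end of the RNA, per the labels' protocols. Named tools are cutadapt and Bowtie, with mm9 as the build, per the submitters' processing notes. Tool versions, and how positions were filtered, were not given in the sources used. Each deposited file lists cleavage positions with raw read counts per position, not normalized. The deposited files also give a hexamer, its distance to the position, and a whole-number score whose meaning is not stated, which was not used.

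Genes and lists were chosen with earlier results of these data known. Same-strand positions at most 24 nt apart, pooled over libraries, were joined, and reads were summed. CPM used the library totals. Every cluster of the genome entered edgeR 4.0.16 in R 4.3.3 (quasi-likelihood test, TMM, filterByExpr, 3 groups in 1 fit, Benjamini-Hochberg adjustment, called under 0.05); standard errors came from the fold change and its F statistic. DESeq2 1.42.0 was an alternative. The code was tested on simulated data. Python 3.11.15 (with numpy 2.4.6, scipy 1.17.1 and pandas 2.3.3) gave the other values, with 95% Wilson intervals for shares and exact binomial ones for ratios.

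Named were the full 3′ ends, near-promoter clusters of at least 5 CPM and other clusters of at least 1 CPM in any group mean, and the 3 most similar clusters elsewhere. In the AMO libraries a shared replicate number means a shared run, by the read names. Deviations from the group means correlated at r = 0.79 over 30095 clusters, which are not independent. Between scrambled AMO and untreated libraries, which share a number but no run, r was -0.42 over 30095 clusters. Other RNA polymerase I and actin-bundling genes, and markers of the cell type, were not analysed here because the files name no genes.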

Additional observations from a re-analysis of the deposited data

Results flagged for a closer look

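One minus-strand cluster, outside the plus-strand rows the report compares, passed the filter on low counts. It was higher in both U1 AMO libraries than in every control library, in replicate 2 by little. It lies at chr5:143720673-143720679, before the Fscn1 window, with the hexamer AATAAA. Its mean was 0.479 CPM with the U1 AMO, from 11 and 15 reads (0.698 and 0.259 CPM). The scrambled AMO libraries had 0.112 and 0.225 CPM and the untreated ones 0.156 and 0.248. Pooled, the U1 AMO level was 1.85 times the scrambled level, with a 95% counting interval of 0.966 to 3.63. A minus-strand cluster below the filter, at chr2:128948754-128948765 in the Polr1b window, had 1 and 2 reads with the U1 AMO and none in the controls.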

How the results depend on the processing

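The gap that joins positions (10 or 50 nt), the near-promoter zone (4000 or 7500 nt) and the library total moved no near-promoter or full 3′ end level beyond the spread between replicates. With AATAAA or ATTAAA positions only, the near-promoter share of all Polr1b window reads with the U1 AMO was 59.1% in place of 57.7%. Leaving out 1 library at a time gave log2 ratios of U1 AMO to scrambled AMO of 9.59 to 9.84 (Polr1b) and 8.66 to 10.87 (Fscn1) near the promoter, for Fscn1 lowest without scrambled AMO replicate 2 and highest without scrambled AMO replicate 1. Without scrambled AMO replicate 2, and with the block over 6 libraries, edgeR called 0 clusters of the genome in U1 AMO against scrambled AMO (4612 and 5676 at an unadjusted p under 0.05). Both near-promoter sites were called when any of the other 5 libraries was left out instead. This contrast chose the genes, so nothing is read from these calls. The same log2 ratios at the full 3′ end were -0.37 to 0.0782 and -0.16 to 0.0392, so both changed sign. Leaving out 1 AMO library breaks the pairing by run. With that pairing kept, the mean of the log2 ratios within a run was -0.15 for Polr1b and -0.06 for Fscn1. The log2 fold change of scrambled AMO against untreated was 0.17 to 0.95 for Polr1b and -0.0752 to 0.57 for Fscn1. A replicate block over the 6 libraries, which pairs the untreated libraries by number and not by run, made these 0.48 and 0.20. Neither was called under any setting run, including 2 that leave out a U1 AMO library and were chosen after seeing the data. With run as a term in the 4 AMO libraries, 10770 clusters were called in place of 533, of which 9199 (13.4% of those tested) were higher, and among the 9 clusters of these genes the near-promoter sites alone. Depth limits the near-promoter levels of the controls, which rest on 0 to 4 reads.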
